A study of Mus musculus with 9 samples.

Results

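The sites described here are 705 places in the mouse genome where wild-type spermatocytes carried a peak, at least 770 bp wide, of histone H3 trimethylated at lysine 4 (H3K4me3), without a listed peak that also had trimethylated lysine 36 (H3K36me3), and where both of the study's PRDM9 mutants still had an H3K4me3 peak. They were chosen from the deposited peak lists: wild-type H3K4me3 intervals of that width that overlap an interval of both mutants' H3K4me3 lists by 1 bp or more and no interval of the wild-type list of peaks with both marks. They make up 3.83% of the 18427 wild-type intervals and 8.63% of the 8165 wild-type intervals of that width without the second mark, and both mutants kept 14.3% of all wild-type intervals. Presence in both mutants, wild-type width and the missing wild-type double-marked call are therefore the choice itself and not findings. No list of H3K36me3 peaks by themselves was used, so an interval without H3K36me3 means here one that overlaps no listed double-marked peak.

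PRDM9 is a zinc finger protein of early meiosis that binds DNA at sequence-defined sites and places both marks on the nucleosomes beside them. The marked sites are where meiotic double-strand breaks are made and recombination starts. H3K4me3 is also found at active gene promoters without PRDM9, and H3K36me3 also covers the bodies of transcribed genes, where other enzymes place it.

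The data are chromatin immunoprecipitations with sequencing (ChIP-seq) from spermatocytes of C57BL/6J mice at 14 days of age. The wild type carried unaltered Prdm9, and the mutants were homozygous for a change of glutamate 360 of PRDM9, to proline in EP (strain C57BL/6J-Prdm9<em2Kpgn>/Kpgn) or to lysine in EK (C57BL/6J-Prdm9<em3Kpgn>/Kpgn). The labels call both changes strong reductions of catalytic activity, and how the spermatocytes were obtained is not given in the sources used here. Each of the 3 genotypes had 2 H3K4me3 libraries and 1 H3K36me3 library, but 1 list of each kind, so replicate error cannot be given for any value and each test compares lists, not mice. The lists hold positions only, the read depth is unknown, and Wilson intervals cover the sampling of sites alone. The lists were confined beforehand to places already known to depend on PRDM9. Genotype and library batch cannot be told apart: of the H3K4me3 libraries, the wild-type and EP ones and 1 of the EK pair were earlier data, and the H3K36me3 library was earlier data for wild type and newly made for each mutant. The protocol text names an H3K4me3 antibody for all 3 H3K36me3 libraries, although their titles and antibody labels say H3K36me3.

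No genome was used here, so DNA sequence is shown for the only part of these sites that the RefSeq promoter table (GRCm38.p6, the coordinates of mm10) covers, annotated transcription starts. The table is not complete, and counts of starts are over the 680 sites on the chromosomes it covers. An annotated start lay inside 13 of them, of 14 genes, 9 of them protein-coding. Among all wild-type intervals the share was 0.855%. The sequences below are the 250 bases before the start, 5′ to 3′ on the gene's strand, with CpG dinucleotides in capitals. Olr1, a receptor for oxidised lipoprotein, and Nedd4, a ubiquitin ligase, are shown because their interval was the same to the base in all 3 genotypes. Akt2, a kinase of insulin signalling, is shown as a wider site whose start stayed inside both mutant intervals, and Rgs19, a regulator of G protein signalling, as the widest of the 13, whose start lay outside both mutant intervals.
Olr1 (minus strand, chr6:129507166-129507415): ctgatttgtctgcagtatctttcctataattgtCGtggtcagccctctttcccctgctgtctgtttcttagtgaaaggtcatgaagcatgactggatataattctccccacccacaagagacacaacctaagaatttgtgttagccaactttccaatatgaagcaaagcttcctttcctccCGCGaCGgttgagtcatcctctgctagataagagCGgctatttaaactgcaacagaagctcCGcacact
Nedd4 (plus strand, chr9:72693048-72693297): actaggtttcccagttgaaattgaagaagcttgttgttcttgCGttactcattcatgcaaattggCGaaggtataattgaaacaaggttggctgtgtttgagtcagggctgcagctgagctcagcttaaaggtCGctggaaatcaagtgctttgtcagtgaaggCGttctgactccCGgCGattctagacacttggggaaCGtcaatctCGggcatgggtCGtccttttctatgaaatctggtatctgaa
Akt2 (plus strand, chr7:27605547-27605796): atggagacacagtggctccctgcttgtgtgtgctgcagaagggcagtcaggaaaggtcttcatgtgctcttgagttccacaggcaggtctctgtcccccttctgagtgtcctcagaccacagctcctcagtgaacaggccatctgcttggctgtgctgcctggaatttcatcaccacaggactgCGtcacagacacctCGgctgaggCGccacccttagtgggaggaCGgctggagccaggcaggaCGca
Rgs19 (minus strand, chr2:181691818-181692067): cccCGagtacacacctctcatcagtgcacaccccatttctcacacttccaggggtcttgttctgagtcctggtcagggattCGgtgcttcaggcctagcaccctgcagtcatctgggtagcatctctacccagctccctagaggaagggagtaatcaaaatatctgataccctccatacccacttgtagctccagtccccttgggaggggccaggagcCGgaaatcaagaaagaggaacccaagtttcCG
These 4 stretches hold 6 CpG (Olr1), 9 CpG (Nedd4), 5 CpG (Akt2) and 4 CpG (Rgs19). Over the 14 promoter windows, which run from 250 bases before to 50 after the start, the median was 4 CpG (from 1 to 13) with 50.5% G+C. Over all 27025 genes of the table it was 7 CpG with 52.7% G+C, and over the 154 genes that start inside any wild-type interval 3 CpG with 46.7% G+C. The windows at these sites were thus not CpG-rich compared with promoters in general.

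The windows were also searched on both strands for the letters GNTGCTNCT, where N is any base. They were found in 3 of the 14 windows (21.4%), in 13.0% of the windows at any wild-type interval and in 7.21% of all windows. The match at Akt2 reads GCTGCTGCT and that at Wnt5b, a secreted signalling ligand, reads GCTGCTTCT. At Akt2 it lies 40 bases after the start, so it is not in the 250 bases shown above. The third window is that of Gm40397, a long noncoding RNA that starts inside the same interval as Wnt5b, and it overlaps the Wnt5b window. Of its 2 matches, 1 is the Wnt5b match read from the other strand. A match is a description of the letters and not a binding site.

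The widths of the start-bearing sites varied from gene to gene. At Olr1 the interval (chr6:129506741-129507571) was 831 bp in wild type, EP and EK. At Nedd4 (chr9:72692243-72693444) it was 1202 bp in all 3. At Akt2 (chr7:27604999-27606550) the widths were 1552 bp (wild type), 1101 bp (EP) and 1074 bp (EK). Both mutant intervals still covered the Akt2 start, while at Rgs19 (chr2:181690119-181692686) only intervals of 624 bp in EP and 570 bp in EK were left of 2568 bp. At Rgs19 these intervals did not overlap each other, lying on either side of the start. At Kcnk2, a potassium channel gene, the EP interval was the short one, with 789 bp (wild type), 449 bp (EP) and 771 bp (EK). The mutant intervals at Tnfrsf14, a receptor of the tumour necrosis factor family, were 876 bp in both mutants, wider than the 809 bp of wild type. At Wnt5b the widths were 1116 bp (wild type), 815 bp (EP) and 1025 bp (EK). At Oca2, a melanosomal transporter gene, they were 1104 bp (wild type), 1016 bp (EP) and 1117 bp (EK). None of the 13 was double-marked in a mutant.

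Across all 705 sites, wild-type widths ran from 770 to 4985 bp with a median of 947 bp (interquartile range 837 to 1236 bp), against a median of 1126 bp over the whole wild-type list. The EP interval had a median of 801 bp (656 to 966 bp), and that of EK had 865 bp (771 to 1021 bp). The narrowest mutant intervals were 189 bp in EP and 165 bp in EK, and the widest 3120 bp in EP and 3196 bp in EK. Together the sites covered 869.4 kb in wild type, 608.9 kb in EP and 632.0 kb in EK. At the median site the mutant interval was 0.785 times the wild-type width in EP (interquartile range 0.558 to 0.974) and 0.938 times in EK (0.596 to 1.0).

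**Figure D1:**
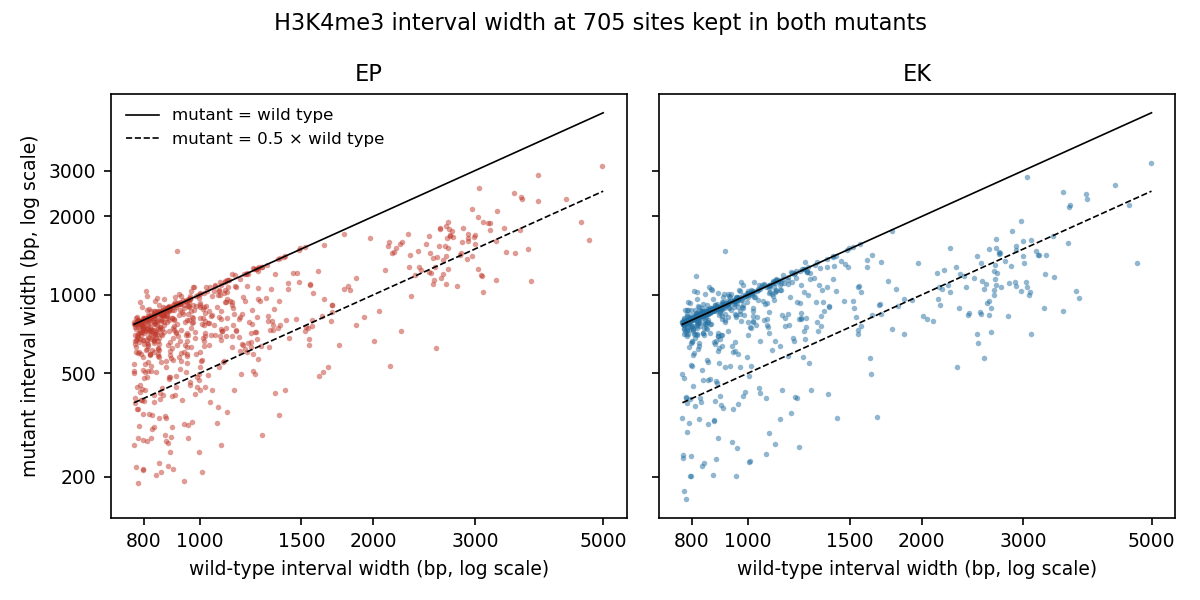
Width of the EP (left) and EK (right) H3K4me3 interval against the width of the wild-type interval at the 705 sites, 1 point per site, both axes in bp on a log scale; the solid line is equal width and the dashed line 0.5 times the wild-type width. Many points of 770 to 999 bp lie at the solid line, those of 1000 to 1499 bp lie closer to it in EK (median 0.914 times) than in EP (0.744 times), and the 92 sites of 2000 bp or more gather near the dashed line.

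The listed intervals of the 2 mutants covered nearly the same stretch. Their widest intervals overlapped each other at 702 of the 705 sites, and the overlap was a median 0.881 of their joint length (interquartile range 0.747 to 0.962). At 97 sites the EP and EK intervals were the same to the base, and at 56 sites all 3 genotypes had the same interval. The lists were confined beforehand to known PRDM9-dependent places, and the part of that step in identical borders was not tested. Both borders equalled those of wild type at 64 sites in EP and 112 in EK, or 9.08% and 15.9%, against 11.9% and 18.1% over all wild-type intervals kept in both mutants. The mutant interval was wider than that of wild type at 84 sites in EP and 168 in EK, and none of these had a wild-type width of 1500 bp or more. Over all intervals kept in both, 14.3% were wider than wild type in EP and 23.2% in EK. Only 6 sites in EP and 3 in EK held more than 1 mutant interval.

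Most sites were narrow, and few lay between 1500 and 1999 bp. There were 405 sites of 770 to 999 bp, 177 of 1000 to 1499 bp, 31 of 1500 to 1999 bp and 92 of 2000 bp or more. The boundary of 2000 bp was set after the widths were seen, so differences between these ranges are given as values without a test. In the narrowest range the median mutant interval was 749 bp in EP and 829 bp in EK, which is 0.897 and 1.0 times the wild-type width. In the 1000 to 1499 bp range the ratios were 0.744 in EP and 0.914 in EK, and in the 1500 to 1999 bp range 0.512 and 0.545. At 2000 bp or more, where the median wild-type width was 2712 bp, the mutants had 1538 bp in EP and 1152 bp in EK, or 0.556 and 0.445 times. Sites of 1500 bp or more thus lost more of their width than narrower ones in both mutants, and at 2000 bp or more the median ratio was lower in EK than in EP. By choice of the sites, these ranges also differ in how often a site was kept: both mutants kept 12.8%, 4.88%, 3.60% and 17.9% of the wild-type intervals without H3K36me3 in the 4 ranges, from narrow to wide.

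The position of the mutant interval differed between the ranges too. At 2000 bp or more, 89 of 92 sites shared no border with wild type in EP and 89 in EK, and 91 EP and 89 EK intervals lay wholly inside the wild-type interval. Their midpoints lay a median 114 bp (EP) and 137 bp (EK) from the wild-type midpoint, and on the same side of it in both mutants at 79 of 92 sites. Among the 613 narrower sites, 210 in EP and 141 in EK shared no border with wild type, and the midpoint lay a median 64.5 bp (EP) and 24.5 bp (EK) from that of wild type. By range, that distance was 45.5 bp (EP) and 13.5 bp (EK) at 770 to 999 bp, 103.5 bp and 45.5 bp at 1000 to 1499 bp, and 363 bp and 320 bp at 1500 to 1999 bp, so it was longest at 1500 to 1999 bp and not at the widest sites. Most of the wide sites were therefore left with a stretch trimmed on both sides. Most of the narrower ones kept a border in common with wild type.

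**Figure D2:**
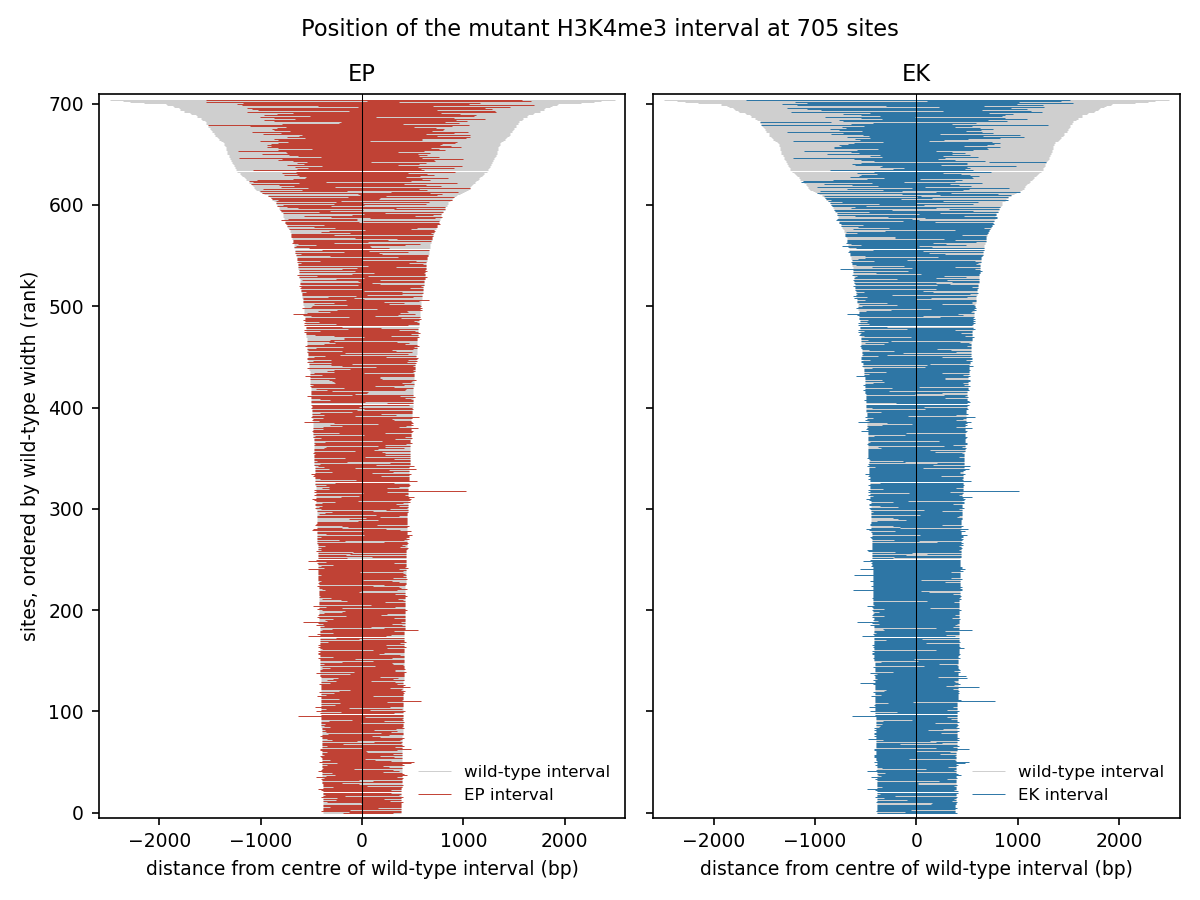
The wild-type interval (grey) and the mutant interval (EP left in red, EK right in blue) at each of the 705 sites, drawn as distance in bp from the centre of the wild-type interval, with sites ordered by wild-type width from bottom to top. Most of the 92 widest sites at the top show a grey margin on both sides of a narrower mutant interval. Below 1500 bp, lower in the plot, the mutant interval fills most of the wild-type one at the median site.

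Which mutant had the wider interval was a comparison that the choice of sites does not set, since it treats EP and EK alike. The interval was wider in EK at 411 sites and wider in EP at 197, with equal widths at 97 (two-sided exact sign test, p = 2.56e-18). That test counts sites of 1 list per mutant and does not measure a difference between mice. Genotype cannot be told apart here from depth, which is unknown, or from library. Over all intervals kept in both mutants, 47.5% were wider in EK and 34.3% in EP, against 58.3% and 27.9% here. The direction depended on wild-type width. Of the sites of 770 to 999 bp, 268 were wider in EK and 59 in EP, with a median difference of -45 bp (EP minus EK). The counts were 117 and 43 at 1000 to 1499 bp and 15 and 14 at 1500 to 1999 bp. At 2000 bp or more they were 11 in EK and 81 in EP, with a median difference of 285 bp in favour of EP. Split at 1000 bp, a test chosen with the lists in view, EP was the wider at 49.1% of the 281 sites of unequal width at or above it and at 18.04% of the 327 below (Fisher's exact test, adjusted p = 1.00e-15). Restricted to the 300 sites of 1000 bp or more, the share wider in EP minus that wider in EK was -1.67 percentage points (exact sign test, p = 0.811), against -30.4 over all 705. That small difference joins an excess of EK at 1000 to 1499 bp (66.1% of sites, beside 66.2% at 770 to 999 bp) to an excess of EP at 2000 bp or more.

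At double-marked sites EP was more often the wider mutant. Wild-type double-marked intervals of at least 770 bp that both mutants kept numbered 636, and there EP was the wider at 498 and EK at 131. Below 1000 bp, EP was the wider at 18.04% of the sites described here (14.3 to 22.6%) and at 59.3% of 59 double-marked ones (46.6 to 70.9%), which is -41.3 percentage points apart (adjusted p = 7.94e-10, Fisher's exact test). At 1000 bp or more the shares were 49.1% and 81.2%, a difference of -32.1 percentage points (adjusted p = 2.31e-20, same exact test). At 2000 bp or more the kinds were close, with EP the wider at 88.0% of 92 and 86.7% of 390 sites. Among the 1185 narrower intervals without H3K36me3 that both mutants kept, EP was the wider at 21.4% of those of unequal width, against 32.4% over all 705 (adjusted p = 5.28e-06, Fisher's exact test) and 18.04% of those below 1000 bp. The share over all 705 includes the 92 widest. A lean towards EK was thus also seen at those narrower sites, which share the lack of a double-marked call in wild type but not the width.

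**Figure D3:**
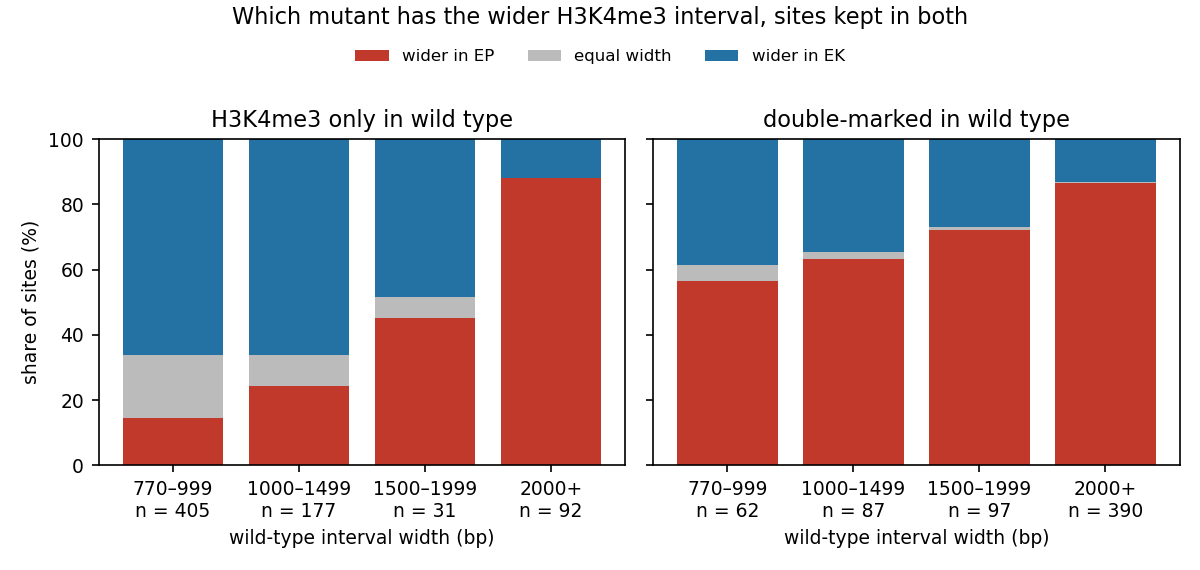
Share of sites (%) whose H3K4me3 interval was wider in EP (red), equal (grey) or wider in EK (blue), by wild-type width in bp, for the 705 sites with H3K4me3 only in wild type (left) and the 636 wild-type double-marked sites kept in both mutants (right). On the left the red share grows from 14.6% at 770 to 999 bp to 88.0% at 2000 bp or more, and on the right it is above 50% in each range.

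None of these sites was listed with both marks in wild type, yet some were in a mutant. There were 32 such sites in EP (4.54%, 3.23 to 6.34%) and 36 in EK (5.11%, 3.71 to 6.99%), 54 sites in all. Of these, 14 were double-marked in both mutants, which is 1.99% of the 705 sites, against 5.59% of all intervals kept in both. Over all wild-type intervals the shares were 2.22% in EP and 1.31% in EK, and over those kept in both mutants 11.1% and 8.33%. The remaining 651 sites (92.3%) had H3K4me3 without a double-marked call in all 3 genotypes. A peak list gives no level, so a call in a mutant and none in wild type does not show that the mark was higher in the mutant. The wild-type H3K36me3 library was earlier data and those of the mutants were new, so library and genotype cannot be told apart here.

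The mutants did not differ detectably in this count. Of the 40 sites double-marked in 1 mutant alone, 18 were so in EP and 22 in EK (exact McNemar test, p = 0.636), and the interval for the EP share, 30.7 to 60.2%, leaves room for either mutant to exceed the other. At the 636 wild-type double-marked sites kept in both, 96 were double-marked in EP alone and 23 in EK alone, an EP share of 80.7% (72.7 to 86.8%). The EP shares lay -35.7 percentage points apart (adjusted p = 5.49e-05, Fisher's exact test). Over all widths together, double-marking was also less frequent than at those sites in each mutant (adjusted p = 1.93e-36 and 5.02e-14, Fisher's exact tests). It was found there at 29.7% in EP and 18.2% in EK. The sets were separated by the wild-type double-marked call, which the choice of sites used, so this difference is not independent of the choice. Compared with the narrower sites without H3K36me3, double-marking was more frequent in EK (5.11% against 2.53%, adjusted p = 0.00563, exact test). In EP the shares were 4.54% and 3.04% (adjusted p = 0.109, exact test), and with 1000 bp as the limit that difference was 3.65 percentage points (adjusted p = 0.00588, exact test). These sets differ in width by the choice of sites. Below 1500 bp the shares here were near those of the narrower sites or lower. They were 2.72% (EK) and 2.96% (EP) at 770 to 999 bp, and 3.39% (EK) and 1.69% (EP) at 1000 to 1499 bp.

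As a share, double-marking was higher at sites of 1500 bp or more than at narrower ones. Both marks were found at 12 of 405 sites in EP and 11 in EK at 770 to 999 bp, at 3 and 6 of 177 at 1000 to 1499 bp, at 3 and 6 of 31 at 1500 to 1999 bp, and at 14 and 13 of 92 at 2000 bp or more. The shares in the widest range were 15.2% for EP (9.29 to 23.9%) and 14.1% for EK (8.45 to 22.7%). The kept wild-type double-marked sites, which were wider as a set (median 2231 bp), had 17.7% in EP and 12.9% in EK at 770 to 999 bp, then 18.4% and 13.8%, and 19.6% and 8.25% at 1500 to 1999 bp. In that range the EK share was the higher at the sites described here, 19.4% of 31. The wild-type double-marked sites of 2000 bp or more reached 36.7% (32.0 to 41.6%) with EP and 22.6% (18.7 to 27.0%) with EK. Of the 14 sites double-marked in both mutants, 8 were at least 2000 bp wide in wild type, and their median wild-type width was 2320.5 bp.

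**Figure D4:**
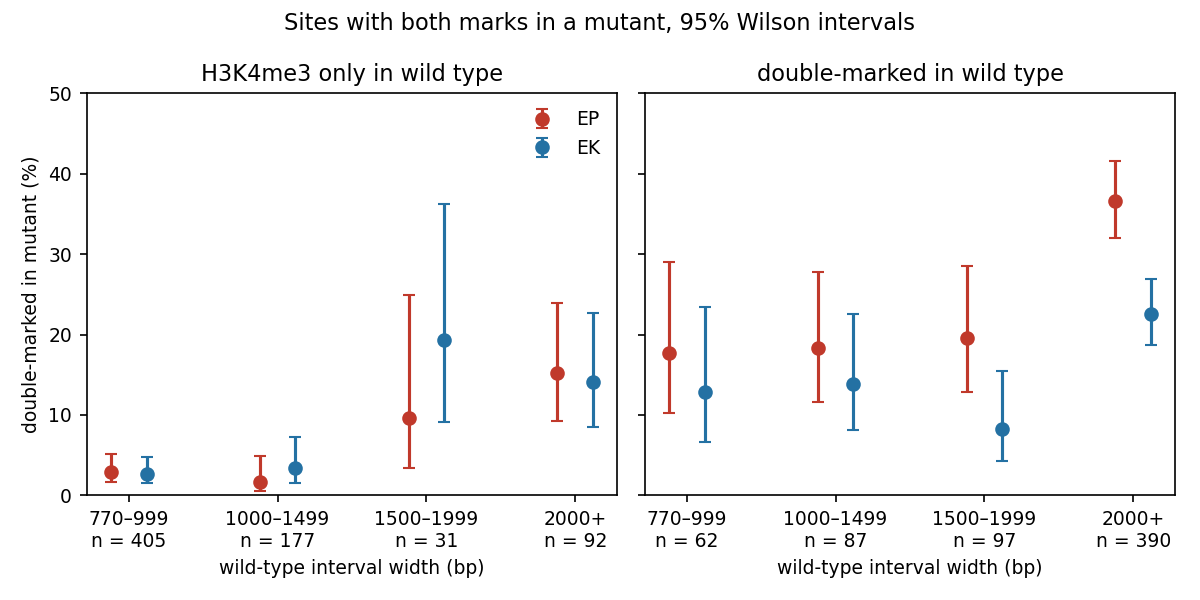
Share of sites (%) double-marked in EP (red) and EK (blue) by wild-type width in bp, with 95% Wilson intervals, for the 705 sites with H3K4me3 only in wild type (left) and the 636 wild-type double-marked sites kept in both mutants (right). On the left both mutants stay at or below 3.39% up to 1499 bp and lie between 9.68% and 19.4% above it; on the right EP is the higher in each range.

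Of all 92 sites of 2000 bp or more, 87 overlapped a protein-coding gene. Like most sites of that width, the widest ones double-marked in both mutants lay inside genes. The first was in Dennd1a, an activator of Rab GTPases (gene identifier 227801, chr2:38135673-38139522), with H3K4me3 widths of 3850 bp (wild type), 2887 bp (EP) and 2430 bp (EK) and double-marked widths of 2547 bp in EP and 2291 bp in EK. At Dock3, an activator of Rac (208869, chr9:107050327-107053698), the widths were 3372 bp, 1810 bp and 1677 bp in the same order. Here the double-marked interval was as wide as the H3K4me3 interval in each mutant. The third, on chromosome 18, had 3186 bp (wild type), 1775 bp (EP) and 1417 bp (EK). Another lay in Wrn, a RecQ helicase gene (22427, chr8:33347274-33349941), with 2668 bp (wild type), 1102 bp (EP) and 996 bp (EK). EP was the wider mutant at each of these 4.

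Sites double-marked in 1 mutant alone were narrower, with a median wild-type width of 1128.5 bp for the 18 of EP alone and 1204 bp for the 22 of EK alone, though the widest of them reached similar sizes. In EP alone, the widest was 1851 bp from Nedd1, a gene of microtubule nucleation (17997, chr10:92679033-92682894), at 3862 bp (wild type), 2286 bp (EP) and 2323 bp (EK). It was followed by sites in Lin52, of the cell-cycle repressor complex DREAM, in Chn1, a Rac GTPase-activating protein, and in Ubr1, a ubiquitin ligase. In EK alone, the widest was in Med26, a Mediator subunit (70625, chr8:72510981-72514257), at 3277 bp (wild type), 2093 bp (EP) and 1417 bp (EK). It was followed by a site 6073 bp from Qk, an RNA-binding protein gene, and by sites in Agtpbp1, a tubulin deglutamylase, and Dcaf8, an adaptor of a ubiquitin ligase. At these 4 the H3K4me3 interval was wider in EP, but over all 22 sites of EK alone it was wider in EP at 10 and in EK at 11. Their median interval was 846.5 bp (EP) and 1024.5 bp (EK). Over the 18 sites of EP alone it was wider in EP at 8 and in EK at 6.

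The widest sites in wild type were mostly marked with H3K4me3 alone in the mutants. The site in Trip12, a ubiquitin ligase (14897, chr1:84803439-84808423), was 4985 bp (wild type), 3120 bp (EP) and 3196 bp (EK), the widest of the 705 in each genotype. In Tanc2, a scaffold protein of synapses (77097, chr11:105864481-105869196), 4716 bp became 1618 bp in EP and 1330 bp in EK. In Ttk, a kinase of the spindle checkpoint (22137, chr9:83858163-83862739), 4577 bp became 1902 bp in EP and 2215 bp in EK. In Nf1, a negative regulator of Ras (18015, chr11:79544877-79549190), 4314 bp became 2332 bp in EP and 2631 bp in EK. EK was thus the wider mutant at 3 of these 4, against 11 of 92 over the range they belong to. Plekha5 (109135, chr6:140590086-140593128), at 3043 bp in wild type, kept the most for its size among the sites named by mutant width, with 2577 bp in EP and 2836 bp in EK. Rnf17, a Tudor domain gene of male germ cells (30054, chr14:56483465-56486972), had 3508 bp, 2460 bp and 2478 bp. Armc9, a gene of cilia (78795, chr1:86216204-86219801), had 3598 bp, 2368 bp and 2167 bp.

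Over all widths together, the sites overlapped protein-coding genes more often than lost or double-marked sites did, but not in each range of width. The span of a protein-coding gene overlapped 482 of the 705 (68.4%, 64.8 to 71.7%), against 54% of all wild-type intervals. Sites that cross a gene end are counted here. The share was 56.3% among the 6906 wild-type intervals of at least 770 bp without H3K36me3 that both mutants lost (Fisher's exact test, adjusted p = 1.18e-09) and 44.3% among the 636 wild-type double-marked sites kept in both (adjusted p = 4.22e-18, exact test). It was 77.3% among the 300 sites of 1000 bp or more and 61.7% among the narrower ones (adjusted p = 1.65e-05, Fisher's exact test). At 770 to 999 bp, 61.7% of the sites overlapped such a gene. The share was 50.2% for lost sites without H3K36me3, 62.9% for kept double-marked sites and 67.3% for lost double-marked ones. At 1000 to 1499 bp the shares were 68.4%, 52.8%, 56.3% and 50.9% in the same order, and at 1500 to 1999 bp 77.4%, 79.3%, 45.4% and 44.2%. At 2000 bp or more, 87 of 92 sites overlapped a protein-coding gene (94.6%, 87.9 to 97.7%). Sites of that width without H3K36me3 in wild type that both mutants lost had nearly the same share, 236 of 249 (94.8%, 91.3 to 96.9%). Double-marked sites of that width had 38.5% (33.8 to 43.4%) where both mutants kept them and 43.0% (37.9 to 48.2%) where both lost them. In this range the gene share thus moved with the wild-type double-marked call, which the choice of sites used, more than with being kept. How the double-marked calls were made inside genes is not given in the sources used here, and its part in these shares was not tested.

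**Figure D5:**
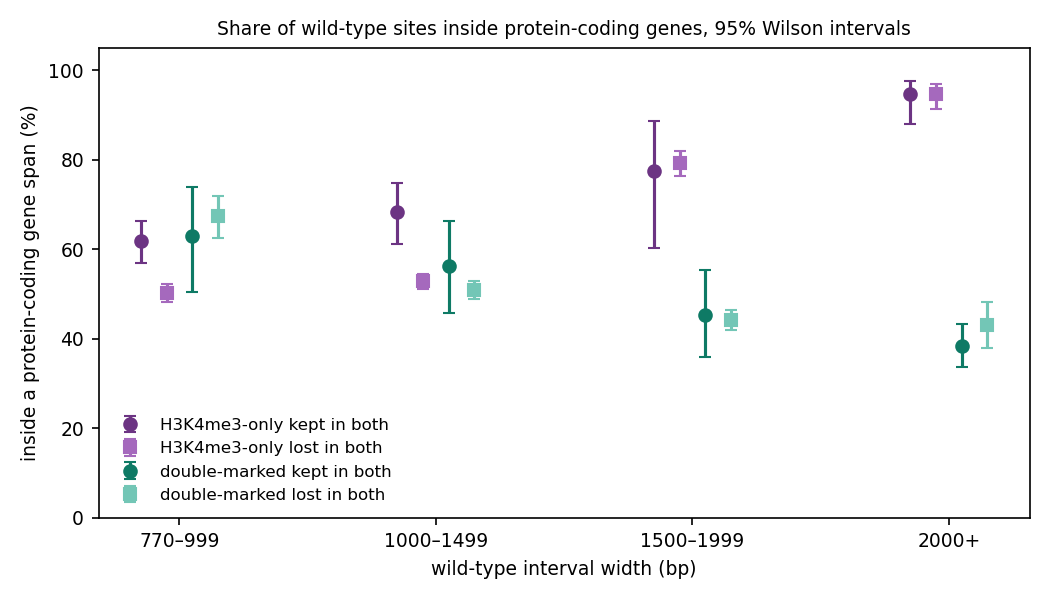
Share of wild-type H3K4me3 intervals (%) that overlap the span of a protein-coding gene, by wild-type width in bp, with 95% Wilson intervals. Intervals without H3K36me3 (purple) and double-marked ones (green) were kept (circles) or lost (squares) by both mutants. Purple shares climb to 94.6% and 94.8% at 2000 bp or more, while green shares are 38.5% and 43.0% there.

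Annotated starts, and gene boundaries of either end, were over all widths also more frequent near these sites than near lost sites of the same width limit. The promoter table holds no start on chromosome 18, which has 25 of the sites. It also misses genes on other chromosomes, such as Cox6c on chromosome 15, where the nearest listed start was 439828 bp from the site. Missing starts can only lower the start shares given here. An annotated start lay within 1 kb of 34 of 680 sites (5.0%, 3.60 to 6.91%), against 1.73% of lost sites (Fisher's exact test, adjusted p = 1.07e-06) and 2.54% of all wild-type intervals. Within 5 kb it was 137 of 680 (20.1%, 17.3 to 23.3%), against 9.01% of lost sites (adjusted p = 3.30e-16, exact test) and 12.7% of all. The share within 1 kb was 7.46% at the narrower kept sites; the gap of -2.46 percentage points missed the threshold (adjusted p = 0.0512, exact test). The start share within 5 kb was 23.3% at 770 to 999 bp and 7.87% (7 of 89 sites) at 2000 bp or more, where lost sites had 8.64%. Kept wild-type double-marked sites had 39.0% at 770 to 999 bp, 27.9% at 1000 to 1499 bp, 23.4% at 1500 to 1999 bp and 9.69% at 2000 bp or more, so nearby starts were not particular to the sites without H3K36me3. The wide sites mostly overlapped genes and lay away from listed starts, in a table that is not complete.

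Either end of a protein-coding gene was 1 kb or less from 42 sites (5.96%, 4.44 to 7.95%), against 3.63% of lost sites (Fisher's exact test, adjusted p = 0.00559) and 3.85% of all wild-type intervals. The narrower kept sites had 7.09% (adjusted p = 0.391, exact test). The widest of the 42 was at Ap3d1, a subunit of a vesicle coat adaptor (11776, chr10:80705772-80709164), with 3393 bp (wild type), 1461 bp (EP) and 1175 bp (EK). Others overlapped a boundary of Cox6c, a subunit of cytochrome c oxidase, with 2691 bp, 1253 bp and 1088 bp, and of Strn, a phosphatase scaffold, with 2504 bp, 1444 bp and 655 bp. The EK interval at Strn was less than 0.5 times as wide as the EP interval.

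A microRNA hairpin lay inside 2 of the sites. The hairpin of Mir7-1, whose product belongs to the conserved miR-7 family, lies within the span of Hnrnpk, an RNA-binding protein gene, in the site chr13:58392354-58394397. The site was 2044 bp (wild type), 864 bp (EP) and 810 bp (EK), and both mutant intervals still covered the hairpin. That of Mir7014, within the span of Ecm1, lay in a site (chr3:95734339-95735226) of 888 bp in wild type, with 586 bp (EP) and 607 bp (EK) and a double-marked call in EK. For the wider site, the main product of Mir7-1 is shown with the seed, bases 2 to 8, in capitals.
mmu-miR-7a-5p: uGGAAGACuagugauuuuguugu

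Genes of meiotic recombination were not among those holding these sites. The 50 names listed for that process gave 49 genes, and 12 of their spans held 17 wild-type intervals, but 0 of the 705 sites. With so few intervals in those genes, a share near that of the whole list could not be told from 0.

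On the chromosomes, the share of wild-type intervals of at least 770 bp without H3K36me3 that became one of these sites ran from 6.19% on the X to 11.7% on chromosomes 4 and 17, with 0 of 5 on the Y. The X held 19 of the sites (2.70%, 1.73 to 4.17%), against 4.07% of the lost sites (Fisher's exact test, adjusted p = 0.0989) and 3.38% of all wild-type intervals. Restricted to 1000 bp or more, the X difference was -2.52 percentage points (adjusted p = 0.0392, exact test). Another wild-type interval lay within 5 kb of 84 sites (11.9%), against 10.7% of lost sites (adjusted p = 0.326, exact test) and 10.8% of all.

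The width limit of the choice separates neighbours in a continuous range. The narrowest sites, 770 bp in wild type, numbered 4 and had 499, 510, 788 and 266 bp in EP and 788, 498, 788 and 335 bp in EK. The 5 intervals that missed the limit by 1 bp, at 769 bp, had 686 to 850 bp in EP and 692 to 943 bp in EK. There were 28 sites of 770 to 779 bp and 31 otherwise equal intervals of 760 to 769 bp.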

How the data were processed

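Per the labels, chromatin was fragmented with micrococcal nuclease before immunoprecipitation. The authors deposited 6 peak lists with a chromosome, start and end per peak and no score, for each genotype 1 of H3K4me3 and 1 of double-marked peaks. The authors' deposited file notes give mm10 as the build and say that a peak had to lie at a PRDM9-dependent site of an earlier series. The submitters' processing notes name Trimmomatic, BWA 0.7.9a and MACS 1.4, with no role, and the rule for a peak with both marks is not given in the sources used here. Widths are end minus start; printed coordinates count from 1.

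Lists were compared with pandas 2.3.3 in Python 3.11.15, and a mutant's width is that of its widest interval over a site. Shares have 95% Wilson intervals (statsmodels 0.14.6). Exact McNemar and sign tests (2) and 19 Fisher's exact tests (SciPy 1.17.1) are two-sided, the latter with Benjamini-Hochberg adjustment over all 19, and the threshold was 0.05. The scripts were tested on simulated lists. Gene spans came from RefSeq (GRCm38.p6). The sites and the list of meiotic genes were chosen with earlier results of these data known. The tests of starts, of genes against double-marked sites, of the wider mutant between sets, of double-marking in 1 mutant alone between sets, and of genes and of the wider mutant between sites of 1000 bp or more and narrower ones were added after the lists were seen. Named sites were taken by width: double-marked in both mutants (5), in EP or EK alone (4 each), widest in each genotype (5), within 1 kb of a gene boundary (10), with a start inside, and at the width limit; 1 of these is not reported here. Kept, lost and double-marked mean overlap by at least 1 bp.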

Additional observations from a re-analysis of the deposited data

Results flagged for a closer look

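Several comparisons between EP and EK differed between sets of sites by a test of the difference itself. The share of sites with the wider interval in EP, among those of unequal width, was 11.0 percentage points higher at the 705 sites than at the narrower kept sites without H3K36me3. Below 1000 bp, however, the share here was 18.04%, lower than the 21.4% of those narrower sites. The share was -41.3 percentage points from that of wild-type double-marked kept sites below 1000 bp and -32.1 percentage points from it at 1000 bp or more. At 2000 bp or more the kinds were close, with EP the wider at 88.0% of 92 and 86.7% of 390 sites. Within the 705 sites the share wider in EP was 31.1 percentage points higher at 1000 bp or more than below. The EP share of sites double-marked in 1 mutant alone was -35.7 percentage points from that of wild-type double-marked kept sites. Each tested difference had an adjusted p below the threshold by Fisher's exact test, as given above. Both H3K4me3 libraries of EP, but only 1 of the 2 from EK, came from earlier work, so library and genotype cannot be told apart.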

How the results depend on the processing

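The 26 results were recomputed under up to 10 settings, 164 values in all: overlap of at least 50% of the shorter interval, midpoints within 500 bp, a width limit of 1000 bp, autosomes only, no intervals within 1 kb of a protein-coding boundary, merging within 500 bp, a 5 kb boundary limit, a 10 kb neighbour limit, summed mutant widths and, chosen after seeing the data, no sites with borders identical to wild type. Direction and side of the threshold, or for values without a test the range, stayed for 152. The width limit of 1000 bp moved most of the others, by construction since it leaves 300 sites: the EP minus EK difference in wider intervals became -1.67 percentage points, the median width ratio 0.629 (EP) and 0.653 (EK), and identical borders 5.33% and 8.33%. It took past the threshold the EP double-marking difference from narrower sites (3.65 percentage points), the X difference from lost sites (-2.52) and the 1 kb start difference from narrower sites (-3.32, and -2.62 with merging, but -0.728 without intervals near a boundary and -2.12 on autosomes, neither past it). It turned the boundary difference from narrower sites to 0.792 percentage points, which was -6.52 and past the threshold with the 5 kb limit; the cause was not tested. No paired analysis was possible because each genotype has 1 list of each kind and so no replicates to pair or leave out; pairing by site is part of the tests above. Depth limits which weak peaks were called, and it is unknown here.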
